A study of Mus musculus with 12 samples.

Results

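The potassium channel, voltage-gated calcium channel and voltage-gated sodium channel genes of the mouse, with their accessory subunits, were followed in islets before and after grafting into fat. They were chosen by symbol alone: Kcn followed by a letter, Cacna, Cacnb, Cacng or Cacna2d, and Scn followed by a number and a or b. The rule matched 135 of the 23234 genes in the table. Of these, 94 belonged to potassium channels, 26 to calcium channels and 14 to sodium channels, and 1, Kcnq1ot1, is a non-coding RNA that carries a channel gene's symbol. Expression was measured by sequencing total RNA in 12 libraries from the C57BL/6 strain, 4 in each of 3 groups. Day 120 grafts and day 60 grafts were islets taken back 120 or 60 days after they had been placed in the inguinal subcutaneous white adipose tissue, fat that lies beneath the groin skin. Isolated islets had not been transplanted. The labels give no sex, age, recipient or genetic modification, and they do not say whether the numbered libraries of a group came from separate mice or islet preparations. For this reason, p-values here speak to library spread alone, and that spread may be technical.

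Beta cells are electrically excitable. When glucose is metabolized, the ATP-sensitive potassium channel closes, the membrane depolarizes, voltage-gated calcium channels open and the calcium that enters releases insulin. Sodium channels shape the rising phase of the action potential, and voltage-gated, calcium-activated and leak potassium channels end it and set the resting potential. Pore subunits carry the current, while beta, alpha2delta, gamma, KChIP and similar subunits change how many channels reach the membrane and how they open and close.

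The authors' values are FPKM, which scale fragments by gene length and library size, so levels can be compared between genes. Read counts were not used here and the total depth is unknown. Against isolated islets, 8 of 8 fibroblast, 8 of 10 fat cell and 6 of 8 macrophage markers were higher in day 120 grafts, and 8 of 8, 9 of 10 and 7 of 8 were higher in day 60 grafts. All 15 acinar markers, mostly digestive enzymes of the exocrine pancreas, were lower in both graft groups. The 15 acinar markers summed to 4.19 to 9.79 FPKM in day 120 grafts, 8.33 to 20.5 in day 60 grafts and 8454 to 96286 in isolated islets. The 17 endocrine reference genes, such as the chromogranins, summed to 14127 to 16654 FPKM in day 120 grafts, 4404 to 16090 in day 60 grafts and 11703 to 13682 in isolated islets. Both libraries that stood apart bear on the channel genes. Day 60 replicate 1 had the lowest endocrine sum of all 12 libraries, 4404 FPKM, and the highest fibroblast, fat cell and macrophage sums, 5024, 10921 and 4021 FPKM. Isolated islet replicate 1 had the lowest acinar sum of its group, 8454 FPKM, and for several channel genes it lay among the grafts. These 2 libraries were picked with the values of all libraries known, and leaving out a library that lies against a difference enlarges that difference. Changes of single genes without them are therefore given as sizes alone, with no test, and calls rest on all 12 libraries. In whole tissue, fewer cells of a type and less RNA per cell cannot be told apart.

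Of the 135 channel genes, 53 were tested, having 1 FPKM or more in 4 or more libraries, 77 were above 0 somewhere but stayed below that filter, and 5 were listed at 0 in every library. Those 5 were the calcium channel gamma subunit gene Cacng6, the leak channel gene Kcnk15, the silent subunit genes Kcns2 and Kcnv1, and the sensory neuron sodium channel gene Scn10a. The tested share was 39.3% of the channel genes and 57.8% of all genes. With a group mean of at least 1 FPKM as the mark, 49 channel genes were detected in day 120 grafts, 49 in day 60 grafts and 43 in isolated islets. These were 36.3%, 36.3% and 31.9% of the channel genes, beside 56%, 58% and 51.7% of all genes, which were also fewest in isolated islets. Of the tested genes, 8 passed the filter through the grafts alone (Cacna2d2, Kcna2, Kcne4, Kcnj8, Kcnk6, Kcnn1, Kcns3 and Scn7a) and 1, Kcnj12, through isolated islets alone. Those 9 entered the test only because one kind of sample had more, so a difference in them is no separate evidence.

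In the comparison of day 120 grafts with isolated islets, 7 of the 53 tested channel genes were higher and 2 were lower at an adjusted p under 0.05, against 31.4% of all 13433 genes tested; the channel share was 17.0%. In the comparison of day 60 grafts with isolated islets, 5 were higher and 10 were lower, or 28.3%, against 43.7% of all genes. Kcna2 and Kcns3 among the rises at day 120, and Kcnj8, Kcns3 and Scn7a among those at day 60, had passed the filter through grafts alone. Kcnj12, among the falls at both times, had passed through isolated islets alone. These counts therefore include calls that are no separate evidence. Both comparisons use the same isolated islets. At day 120, 24.3% of all genes were higher and 7.03% lower, and at day 60, 31.3% were higher and 12.3% lower. Groups did not overlap for 18 of the 53 at day 120, 11 higher and 7 lower, where 35.5% of all genes (28.3% higher and 7.24% lower) did not overlap either. At day 60 this held for 15, 7 higher and 8 lower, where 31.1% of all genes did so and 9.01% were lower. The median log2 change of the tested channel genes was 0.21 at day 120 and 0.17 at day 60, beside 0.30 and 0.27 for all genes. These tests are limma on log2(FPKM + 1) with Benjamini-Hochberg adjustment over all genes tested, and log2 changes are on that scale, which understates changes of low genes. All 3 groups share 1 estimate of the spread in this fit. Leaving out a library of the group not compared can thus end or add a call while the log2 change stays the same. Without isolated islet replicate 1 and day 60 replicate 1, 22 channel genes were called higher and 10 lower at day 120, which is 60.4% of those tested beside 56.4% of all genes. At day 60 the same fit called 20 higher and 12 lower, again 60.4%, beside 58.1% of all genes. The channel share was thus below that of all genes with 12 libraries and near it without these 2. The direction split depended on scaling, for channel genes and for all genes. With upper-quartile scaling, 1 channel gene was higher and 5 lower at day 120, where 17.5% of all genes were higher and 9.92% lower. At day 60 that scaling gave 3 higher and 11 lower, where 25.8% and 16.8% of all genes were. Quantile normalization gave 1 higher and 7 lower at day 120, where 11.4% of all genes were higher and 13.6% lower, and 3 higher and 16 lower at day 60, where the shares of all genes were 17.8% and 21.7%. Scaling to the endocrine reference genes gave 0 higher and 2 lower at day 120, where 1.03% of all genes were higher and 2.14% lower, and 6 higher and 4 lower at day 60, where the shares of all genes were 22% and 3.33%. The genes called with all libraries as deposited kept the sign of their change under every alternative run.

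**Figure D1:**
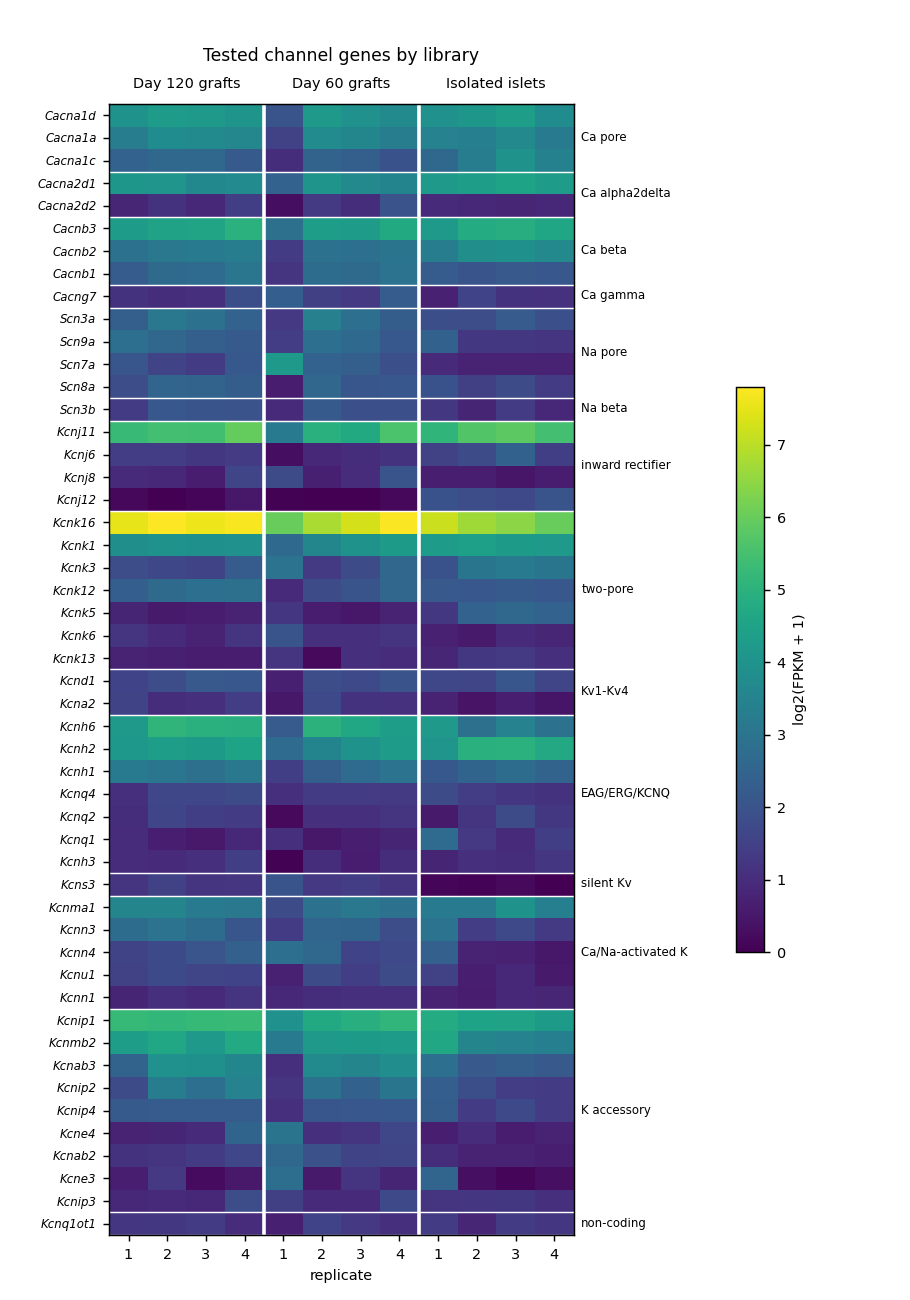
Level of 50 of the 53 tested channel genes (rows, grouped by role) in each library (columns: day 120 grafts, day 60 grafts, isolated islets, replicates 1 to 4), as log2(FPKM + 1) on a colour scale. Kcnk16 is the brightest row in all 3 groups, Kcnj12 is near 0 in the 8 grafts, Kcns3 is near 0 in isolated islets, and day 60 replicate 1 is darker than its neighbours in many rows.

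Kcnj12 encodes Kir2.2, an inward rectifier that holds cells near their resting potential, and it lay at chr11:61022564-61071131 on the plus strand (GENCODE M21, GRCm38). It was listed at 0.124, 0, 0.088 and 0.404 FPKM in day 120 grafts, 0.028, 0, 0 and 0.118 FPKM in day 60 grafts and 2.89, 2.57, 2.33 and 3.10 FPKM in isolated islets. Every graft was below every isolated islet library, and a 0 in this table can be a failed estimate. The log2 change was -1.70 at day 120 (SE 0.15, adjusted p = 2.05e-05) and -1.84 at day 60 (SE 0.15, adjusted p = 9.65e-06), and the gene stayed past the threshold when any 1 library was left out. Kcnj12 entered the test through isolated islets alone, and the filter read all 12 libraries in those fits too. Neither the calls nor their survival is thus separate evidence. In isolated islets it held between 3.499% and 6.82% of the summed FPKM of all Kcnj genes, against at most 0.575% in any graft.

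Kcnk5 encodes TASK-2, a leak channel of the tandem-pore-domain family that opens in alkaline conditions. Its levels were 0.740, 0.489, 0.501 and 0.692 FPKM in day 120 grafts, 1.34, 0.523, 0.419 and 0.698 FPKM in day 60 grafts and 1.39, 4.44, 5.22 and 4.43 FPKM in isolated islets. No graft reached the lowest isolated islet library, replicate 1, which was itself close to day 60 replicate 1. The log2 change was -1.52 at day 120 (SE 0.28, adjusted p = 0.00365) and -1.42 at day 60 (SE 0.28, adjusted p = 0.00237), and it stayed past the threshold without any 1 library. Without both libraries that stood apart it was -1.83 at day 120 and -1.88 at day 60. With endocrine scaling the day 60 call was lost (-1.19, adjusted p = 0.0506). TASK-2 is also known from epithelia such as the kidney tubule. The 8 duct markers, an epithelium of the pancreas, summed to 257 to 281 FPKM in day 120 grafts, 145 to 298 in day 60 grafts and 679 to 1023 in isolated islets, with 5 of the 7 tested lower in each graft group, and acinar markers moved in the same direction. In isolated islet replicates 1 to 4 the duct sums were 988, 1023, 679 and 848 FPKM, so replicate 3, with the highest Kcnk5, had the lowest. The acinar sum was lowest in replicate 1, which also had the lowest Kcnk5 of the isolated islets. The part of these cells in the result was not tested.

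Kcns3 encodes Kv9.3, an electrically silent subunit that conducts only when joined to a pore-forming subunit. It stood at 1.30, 1.86, 1.27 and 1.37 FPKM in day 120 grafts, 3.11, 1.47, 1.68 and 1.30 FPKM in day 60 grafts and 0.092, 0.056, 0.144 and 0 FPKM in isolated islets. All 8 grafts were above all 4 isolated islet libraries. The log2 change was 1.19 at day 120 (SE 0.19, adjusted p = 0.00216) and 1.39 at day 60 (SE 0.19, adjusted p = 0.00042), and no single library was needed for either call. Kcns3 entered the test through the grafts alone, and the filter read all 12 libraries also when 1 was left out. These calls are thus no separate evidence. Scaling to the endocrine reference genes gave 1.00 at day 120 (adjusted p = 0.182) and 1.69 at day 60 (adjusted p = 0.0144), so the day 120 call was lost under that scaling. The level was highest in day 60 replicate 1, the library with the most fibroblast, fat cell and macrophage RNA; the part of those cells was not tested.

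Kcnk16 encodes TALK-1, a leak channel known from pancreatic islets, and its RNA was the most abundant of all the channel genes by the mean of each group. It was at 180, 222, 192 and 212 FPKM in day 120 grafts, 62.3, 111, 157 and 216 FPKM in day 60 grafts and 144, 101, 85.3 and 62.2 FPKM in isolated islets. Day 120 grafts all lay above the isolated islets, while day 60 grafts spanned them. The log2 change was 1.09 at day 120 (SE 0.34, adjusted p = 0.0297), and it was 0.40 at day 60 (SE 0.34, adjusted p = 0.358), which did not pass. Leaving out any 1 of isolated islet replicates 2, 3 and 4 or day 120 replicates 2, 3 and 4 ended the day 120 call, with an adjusted p of up to 0.0982. When both libraries that stood apart were left out, the log2 change was 1.29 at day 120 and 0.93 at day 60. With endocrine scaling the day 120 change was 0.73 (adjusted p = 0.164) and did not pass. Kcnk16 supplied 88.35% to 89.8% of the summed Kcnk FPKM in day 120 grafts, 75.6% to 87.3% in day 60 grafts and 63.9% to 83.4% in isolated islets.

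Kcnk5 and Kcnk16 are neighbours on chromosome 14, both on the minus strand with 79.6 kb between them (chr14:20140057-20181809 and chr14:20261376-20269199, GENCODE M21, GRCm38). In day 120 grafts Kcnk16 rose and Kcnk5 fell. Their promoter windows are shown with those of Kcnj12 and Kcns3. Kcnk5, Kcnj12 and Kcns3 passed the threshold at both times, and Kcnk16 had the highest level. Kcnj12 had entered the test through isolated islets alone and Kcns3 through grafts alone. Each window runs from 250 bases before to 50 after the first start that RefSeq lists (GRCm38.p6), in the direction of transcription. Capitals mark matches on either strand to an E-box (CACGTG) or a Maf half-site (TGCTGAC, or GTCAGCA on the other strand).
Kcnk16 (chr14:20269220-20269519, minus strand): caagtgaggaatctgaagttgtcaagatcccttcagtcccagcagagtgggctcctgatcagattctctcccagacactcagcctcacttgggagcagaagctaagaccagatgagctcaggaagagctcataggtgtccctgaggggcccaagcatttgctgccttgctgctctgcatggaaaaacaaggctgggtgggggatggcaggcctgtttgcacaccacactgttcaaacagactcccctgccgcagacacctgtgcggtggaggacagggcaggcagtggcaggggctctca
Kcnk5 (chr14:20181733-20182032, minus strand): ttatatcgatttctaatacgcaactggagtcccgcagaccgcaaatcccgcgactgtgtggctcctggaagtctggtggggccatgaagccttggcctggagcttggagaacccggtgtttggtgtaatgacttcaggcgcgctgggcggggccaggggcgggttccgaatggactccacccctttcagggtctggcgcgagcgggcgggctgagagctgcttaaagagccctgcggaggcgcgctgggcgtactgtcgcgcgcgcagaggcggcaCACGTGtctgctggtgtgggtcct
Kcnj12 (chr11:61065554-61065853, plus strand): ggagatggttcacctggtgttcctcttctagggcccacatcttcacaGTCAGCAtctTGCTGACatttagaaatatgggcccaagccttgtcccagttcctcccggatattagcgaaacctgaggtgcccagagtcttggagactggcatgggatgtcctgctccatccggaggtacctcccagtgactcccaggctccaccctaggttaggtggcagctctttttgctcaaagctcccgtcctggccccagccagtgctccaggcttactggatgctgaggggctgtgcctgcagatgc
Kcns3 (chr12:11150793-11151092, minus strand): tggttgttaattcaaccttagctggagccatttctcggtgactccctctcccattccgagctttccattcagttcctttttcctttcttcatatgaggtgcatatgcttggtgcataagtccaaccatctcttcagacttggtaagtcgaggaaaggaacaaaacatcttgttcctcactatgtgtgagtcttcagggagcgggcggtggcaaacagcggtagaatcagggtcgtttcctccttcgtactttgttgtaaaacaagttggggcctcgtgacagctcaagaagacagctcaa
The Kcnk5 window held 1 E-box, downstream of the start, and the Kcnj12 window held 2 Maf half-sites on opposite strands. The windows of Kcnk16 and Kcns3 held none of the motifs searched. The Kcnj12 window lies around a RefSeq start inside the gene, downstream of the first base that GENCODE gives. The Kcnk16 window lies wholly upstream of the first base that GENCODE gives for that gene. Across the 27025 promoter windows searched, 7.24% held an E-box, 4.58% a Maf half-site and 1.88% a cAMP response element (TGACGTCA). Of the 37 tested channel genes with a window, 3 held an E-box (Kcne4, Kcnk5 and Kcnn4), 3 a Maf half-site (Kcnip1, Kcnj12 and Kcnq1ot1) and 0 a cAMP response element. A match is a run of letters only, and no binding was measured.

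**Figure D2:**
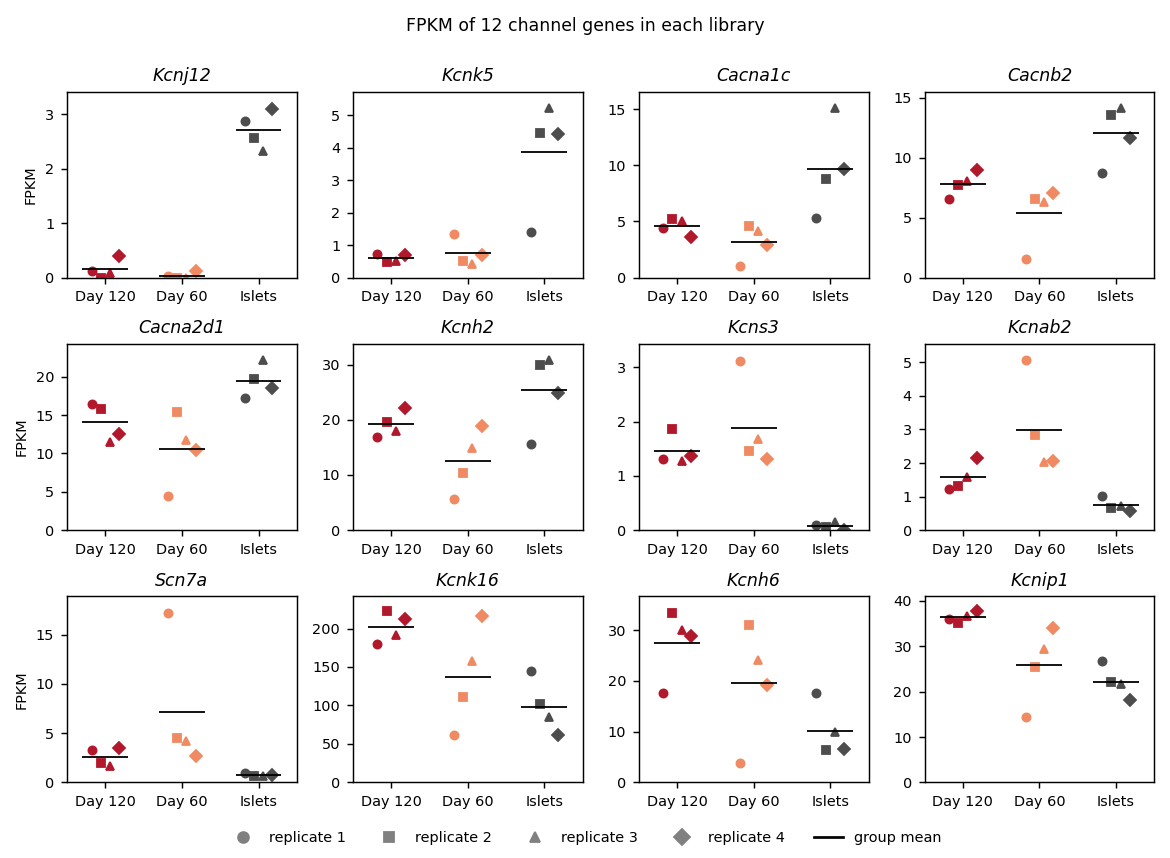
FPKM of 12 channel genes in each library, with day 120 grafts, day 60 grafts and isolated islets from left to right, a marker shape for each replicate number and a line at the group mean. Kcnj12 and Kcnk5 lie lower in all 8 grafts than in every isolated islet library, Kcns3 and Scn7a lie higher, and day 60 replicate 1 is the lowest graft for Cacna1c, Cacnb2, Cacna2d1 and Kcnh2 and the highest for Kcns3, Kcnab2 and Scn7a.

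The ATP-sensitive potassium channel of the beta cell joins the pore Kir6.2, made from Kcnj11, with the sulfonylurea receptor made from Abcc8. Kcnj11 had the next highest group means, and was at 38.3, 43.1, 42.8 and 60.6 FPKM in day 120 grafts, 8.36, 30.2, 25.9 and 47.2 FPKM in day 60 grafts and 33.6, 50.5, 56.2 and 43.2 FPKM in isolated islets. The groups overlapped, with day 60 replicate 1 far below all other libraries. The log2 change was 0.01 at day 120 (SE 0.39, adjusted p = 0.984) and -0.89 at day 60 (SE 0.39, adjusted p = 0.0794). Without both libraries that stood apart it was -0.13 at day 120 and -0.56 at day 60. Abcc8 averaged 218 ± 32.9 FPKM in day 120 grafts, 152 ± 77.9 in day 60 grafts and 125 ± 33.3 in isolated islets (SD, n = 4 each), and neither change passed (0.82, adjusted p = 0.172, and 0.04, adjusted p = 0.947). The ratio of Abcc8 to Kcnj11 was 3.99 to 5.56 in day 120 grafts and 4.34 to 6.77 in day 60 grafts, against 2.09 to 2.34 in isolated islet replicates 2 to 4 and 5.12 in replicate 1. The ratio is thus separated between grafts and islets only if isolated islet replicate 1 is set aside.

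Kcnj6 encodes Kir3.2, a G-protein-gated inward rectifier through which hormones such as somatostatin can quiet a cell. It was at 1.69, 1.69, 1.40 and 1.59 FPKM in day 120 grafts, 0.235, 0.822, 1.04 and 1.19 FPKM in day 60 grafts and 1.85, 2.47, 4.38 and 1.71 FPKM in isolated islets. Both graft groups lay below the isolated islets, day 120 by a narrow margin. It fell at day 60 (log2 change -0.96, SE 0.24, adjusted p = 0.00765) and did not pass at day 120 (-0.42, adjusted p = 0.19). Its partner gene Kcnj5 stayed at or below 0.156 FPKM in every library and was not tested. Kcnj8, the pore of the vascular type of ATP-sensitive channel, was at 0.896, 0.819, 0.548 and 2.11 FPKM in day 120 grafts, 2.49, 0.606, 1.00 and 3.06 FPKM in day 60 grafts and 0.575, 0.577, 0.386 and 0.515 FPKM in isolated islets. It rose at day 60 (0.78, adjusted p = 0.0469), a call kept without day 120 replicate 4 or day 60 replicate 2 or 3 and lost without any of the other 9 libraries, with an adjusted p of up to 0.129. Kcnj8 had passed the filter through grafts alone, so neither this call nor its survival is separate evidence. Its receptor gene Abcc9 averaged 1.47, 1.95 and 1.13 FPKM in day 120 grafts, day 60 grafts and isolated islets and did not pass. The 10 pericyte and smooth muscle markers, cells in which this channel type is known, summed to 49.6 to 134 FPKM in day 120 grafts, 82.6 to 259 in day 60 grafts and 40.6 to 51.9 in isolated islets; their part was not tested.

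Of the 7 tested tandem-pore leak genes, Kcnk5 and Kcnk16 were the ones that passed with all 12 libraries, where 31.4% of all genes passed at day 120 and 43.7% at day 60. Kcnk1, which encodes TWIK-1, was at 13.7 to 14.8 FPKM in day 120 grafts, 5.40 to 18.0 in day 60 grafts and 17.4 to 20.3 in isolated islets, and its changes did not pass (-0.37, adjusted p = 0.289, and -0.67, adjusted p = 0.0551). Kcnk3, which encodes the acid-sensitive TASK-1, was at 2.60, 2.23, 2.01 and 3.81 FPKM in day 120 grafts, 6.83, 1.49, 2.49 and 4.96 FPKM in day 60 grafts and 2.93, 7.19, 8.47 and 7.13 FPKM in isolated islets. Day 60 replicate 1 was the highest graft for Kcnk3 and isolated islet replicate 1 the lowest islet library, so the groups overlapped. With all libraries Kcnk3 did not pass (-0.97, adjusted p = 0.0559, at day 120 and -0.65, adjusted p = 0.157, at day 60). Without both, the log2 changes were -1.25 at day 120 and -1.202 at day 60.

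Among the calcium channel genes, the L-type pore Cacna1c, the beta subunit Cacnb2 and the alpha2delta subunit Cacna2d1 fell at day 60, and none of the 9 tested passed at day 120. Of all genes, 12.3% fell at day 60 and 31.4% passed at day 120. Cacna1c encodes Cav1.2, and it was at 4.44, 5.24, 5.06 and 3.65 FPKM in day 120 grafts, 1.04, 4.57, 4.17 and 2.93 FPKM in day 60 grafts and 5.28, 8.79, 15.1 and 9.69 FPKM in isolated islets. All 8 grafts were below all 4 isolated islet libraries. The log2 change was -1.38 at day 60 (SE 0.33, adjusted p = 0.00579) and -0.87 at day 120 (SE 0.33, adjusted p = 0.0588), and the day 60 call held when any 1 library was left out. Without both libraries that stood apart, the day 120 change was -1.10. The other pore genes tested did not pass. Cacna1d, for the L-type channel Cav1.3, averaged 16.6 ± 1.88 FPKM in day 120 grafts, 11.69 ± 6.16 in day 60 grafts and 15.8 ± 2.94 in isolated islets (SD, n = 4 each), with log2 changes of 0.08 (adjusted p = 0.891) and -0.59 (adjusted p = 0.212). Its exons overlap those of Chdh on the opposite strand, so its level and the Cacna1 sums may hold reads of that gene if strand was not used. Cacna1a, for the P/Q-type channel Cav2.1, averaged 11.4 ± 1.84, 8.52 ± 4.71 and 9.84 ± 1.44 FPKM in day 120 grafts, day 60 grafts and isolated islets, with changes of 0.19 (adjusted p = 0.733) and -0.40 (adjusted p = 0.423). Set against the summed FPKM of all Cacna1 genes, Cacna1c was 10.8% to 14.7% in day 120 grafts, 10.6% to 14.0% in day 60 grafts and 16.6% to 31.0% in isolated islets. The T-type pore genes Cacna1g and Cacna1h and the R-type pore gene Cacna1e were below the filter, and Cacna1e reached at most 0.208 FPKM in any library.

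Beta subunits bring the pore to the membrane. Cacnb2 was at 6.58, 7.69, 8.09 and 8.94 FPKM in day 120 grafts, 1.56, 6.52, 6.28 and 7.08 FPKM in day 60 grafts and 8.70, 13.6, 14.1 and 11.66 FPKM in isolated islets. Day 60 grafts all lay below the isolated islets, and day 120 grafts overlapped only with isolated islet replicate 1. It fell at day 60 (log2 change -1.15, SE 0.32, adjusted p = 0.0122) and did not pass at day 120 (-0.55, adjusted p = 0.195). Cacnb3, the most abundant beta subunit RNA in all 12 libraries, averaged 23.4 ± 5.16 FPKM in day 120 grafts, 17.6 ± 8.14 in day 60 grafts and 23.6 ± 4.86 in isolated islets (SD, n = 4 each), and did not pass. As a share of the summed Cacnb FPKM, Cacnb2 was 18.8% to 22.4% in day 120 grafts, 16.2% to 20.3% in day 60 grafts and 29.0% to 31.3% in isolated islets, with no overlap. Cacnb1, chosen after its values were seen, held 13.1% to 15.6% in day 120 grafts, 13.4% to 17.9% in day 60 grafts and 7.06% to 12.9% in isolated islets. Cacna2d1, which encodes alpha2delta-1, averaged 14.1 ± 2.46 FPKM in day 120 grafts, 10.5 ± 4.55 in day 60 grafts and 19.4 ± 2.15 in isolated islets (SD, n = 4 each), and fell at day 60 (-0.93, SE 0.28, adjusted p = 0.0179) but not at day 120 (-0.45, adjusted p = 0.228). The call for Cacna2d1 did not survive leaving out isolated islet replicate 3 (adjusted p = 0.0533) or endocrine scaling (-0.66, adjusted p = 0.0941).

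**Figure D3:**
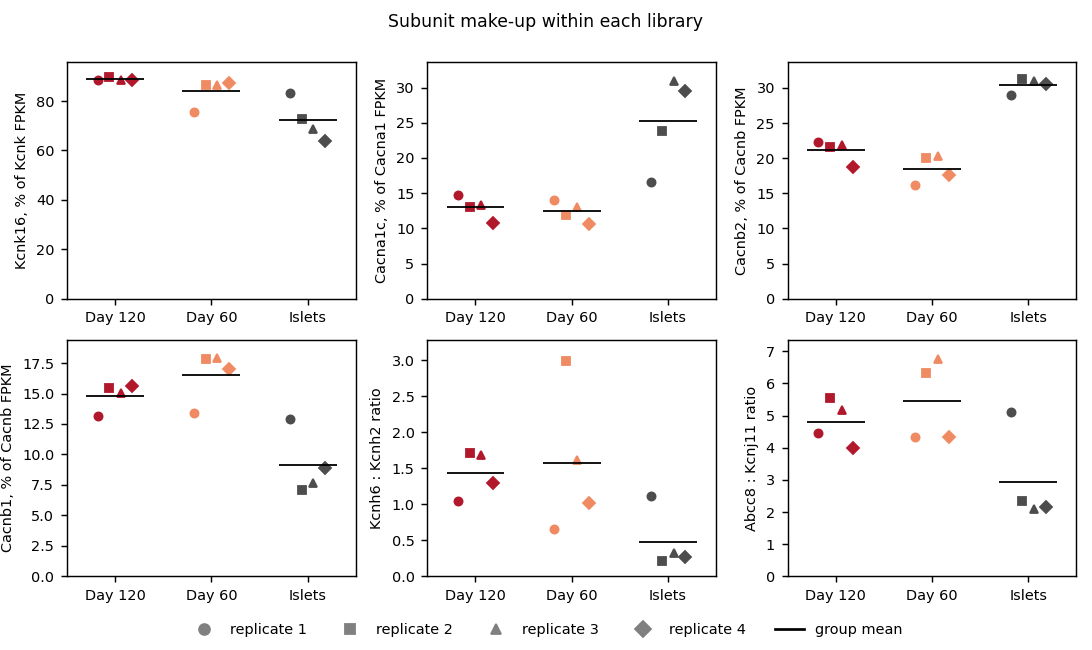
Share or ratio of channel subunits within each library (points, replicate by marker shape, line at the group mean), from left to right for day 120 grafts, day 60 grafts and isolated islets. Cacna1c and Cacnb2 hold smaller shares in every graft than in any isolated islet library and Cacnb1 a larger one, while the Kcnh6 to Kcnh2 and Abcc8 to Kcnj11 ratios overlap at isolated islet replicate 1, which lies with the grafts.

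Of the 4 tested sodium channel pore genes, 1 rose at day 120 and 1 rose at day 60, where 24.3% and 31.3% of all genes rose. All 4 had log2 changes above 0 with all libraries, as did 68.95% of all genes at day 120 and 64.04% at day 60. The change of Scn8a at day 60 was below 0 with quantile normalization (-0.20). Scn7a encodes a sodium-sensing channel known from glia and other non-endocrine cells, and it was at 3.27, 2.02, 1.64 and 3.48 FPKM in day 120 grafts, 17.2, 4.503, 4.18 and 2.72 FPKM in day 60 grafts and 0.938, 0.674, 0.672 and 0.716 FPKM in isolated islets. All grafts were above all isolated islets, with day 60 replicate 1 the highest. Scn7a rose at day 60 (log2 change 1.92, SE 0.39, adjusted p = 0.00284), and its day 120 change did not pass (1.01, SE 0.39, adjusted p = 0.0644). Scn7a entered the test through the grafts alone, so its call, the 1 rise counted at day 60, is no separate evidence. Without day 60 replicate 1 the change was 1.44 at day 60. Of the marker lists, the 8 fibroblast genes summed to 270 to 767 FPKM in day 120 grafts, 696 to 5024 in day 60 grafts and 18.0 to 24.6 in isolated islets. The 7 Schwann and glia genes summed to 23.1 to 63.0, 20.9 to 43.4 and 27.1 to 57.5 FPKM in day 120 grafts, day 60 grafts and isolated islets. The part of either cell type in the result was not tested. Scn9a, which encodes Nav1.7, was at 6.18, 5.01, 4.15 and 3.63 FPKM in day 120 grafts, 1.70, 6.22, 5.41 and 3.47 FPKM in day 60 grafts and 4.41, 1.39, 1.39 and 1.29 FPKM in isolated islets. Isolated islet replicate 1 lay among the grafts and day 60 replicate 1 near the other islets. The gene rose at day 120 (0.97, SE 0.34, adjusted p = 0.0465) and did not pass at day 60 (0.74, adjusted p = 0.0917). Without both libraries that stood apart the changes were 1.26 at day 120 and 1.33 at day 60, while the day 120 call was lost in 9 of the 12 fits that each left out 1 library, all but those without day 60 replicate 1 or 2 or isolated islet replicate 1 (adjusted p of up to 0.127). Exons of Scn9a overlap those of a gene on the opposite strand, Gm13629, and whether counting used strand is not given in the sources used here.

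Scn3a and Scn8a, for the pores Nav1.3 and Nav1.6, did not pass with all 12 libraries. Scn3a averaged 5.77 ± 1.74 FPKM in day 120 grafts, 5.27 ± 3.41 in day 60 grafts and 2.92 ± 0.533 in isolated islets (SD, n = 4 each). Without both libraries that stood apart, the log2 change of Scn3a was 0.73 at day 120 and 0.85 at day 60, and that of Scn8a was 0.75 and 0.70. Scn3b, a beta subunit that changes channel gating, was at 1.54, 3.36, 3.10 and 3.00 FPKM in day 120 grafts, 0.930, 3.63, 2.77 and 2.76 FPKM in day 60 grafts and 1.41, 0.742, 1.58 and 0.831 FPKM in isolated islets. Day 120 replicate 1 and day 60 replicate 1 lay with the isolated islets and the other 6 grafts above them. Scn3b rose at day 120 (0.80, SE 0.28, adjusted p = 0.0447) and did not pass at day 60 (0.67, adjusted p = 0.0677), and the call was lost in 8 of the 12 fits with 1 library left out, all but those without day 120 replicate 1, day 60 replicate 1 or 2 or isolated islet replicate 1 (adjusted p of up to 0.123). In sum, the sodium channel genes came to 26.6 ± 1.49 FPKM in day 120 grafts, 35.6 ± 11.4 in day 60 grafts and 16.1 ± 1.93 in isolated islets (SD, n = 4 each). By library the day 60 sums were 50.98, 34.98, 33.01 and 23.55 FPKM, the highest in replicate 1, the library with the lowest endocrine sum.

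Voltage-gated potassium channels repolarize the cell. Kcna2, for Kv1.2, was at 2.01, 1.03, 1.08 and 1.66 FPKM in day 120 grafts, 0.428, 2.32, 1.20 and 1.17 FPKM in day 60 grafts and 0.724, 0.327, 0.565 and 0.348 FPKM in isolated islets. Day 120 grafts lay above the isolated islets, and so did 3 of the 4 day 60 grafts. Kcna2 rose at day 120 (log2 change 0.70, SE 0.24, adjusted p = 0.0429) and did not pass at day 60 (0.56, adjusted p = 0.0769), and 9 of the 12 fits that left out 1 library lost the call, all but those without day 60 replicate 1 or 2 or isolated islet replicate 1 (adjusted p of up to 0.111). Because Kcna2 had passed the filter through grafts alone, its call is no separate evidence.

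The ERG-type genes Kcnh2 and Kcnh6 encode channels that open during repolarization. Kcnh2 was at 17.0, 19.5, 17.9 and 22.2 FPKM in day 120 grafts, 5.63, 10.4, 14.9 and 18.9 FPKM in day 60 grafts and 15.6, 29.9, 30.8 and 24.9 FPKM in isolated islets. Isolated islet replicate 1 lay within the grafts and the other isolated islets above them. Kcnh2 fell at day 60 (log2 change -1.04, SE 0.31, adjusted p = 0.0164) and did not pass at day 120 (-0.35, adjusted p = 0.39), and the day 60 call was lost without isolated islet replicate 2 or 3 (adjusted p of up to 0.0536) and with endocrine scaling (-0.77, adjusted p = 0.0506). Kcnh6 was at 17.7, 33.4, 30.1 and 28.8 FPKM in day 120 grafts, 3.73, 31.1, 24.1 and 19.2 FPKM in day 60 grafts and 17.5, 6.31, 10.0 and 6.5 FPKM in isolated islets. Kcnh6 rose at day 120 (1.43, SE 0.51, adjusted p = 0.0484) and did not pass at day 60 (0.69, adjusted p = 0.286), and 9 of the 12 fits with 1 library left out lost the call, all but those without day 60 replicate 1 or 2 or isolated islet replicate 1 (adjusted p of up to 0.126). For Kcnh6, day 60 replicate 1 was the lowest graft and isolated islet replicate 1 the highest islet library, and without both the log2 change was 1.71 at day 120 and 1.58 at day 60. For Kcnh2 it was then -0.55 and -0.94. The ratio of Kcnh6 to Kcnh2 was 1.04 to 1.71 in day 120 grafts and 0.663 to 2.99 in day 60 grafts. In isolated islets it was 0.211, 0.325 and 0.261 in replicates 2, 3 and 4 and 1.12 in replicate 1.

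Kcnq1 encodes Kv7.1, a slow delayed rectifier. It was at 0.993, 0.576, 0.455 and 0.807 FPKM in day 120 grafts, 1.12, 0.431, 0.585 and 0.757 FPKM in day 60 grafts and 5.63, 1.46, 0.916 and 1.71 FPKM in isolated islets, with isolated islet replicate 1 far above the rest. It was called lower at day 60 (log2 change -0.83, SE 0.32, adjusted p = 0.048), but 10 of the 12 fits with 1 library left out lost the call, all but those without day 60 replicate 1 or isolated islet replicate 3 (adjusted p of up to 0.103). Without isolated islet replicate 1 it was -0.45, and with day 60 replicate 1 left out as well -0.56. Its exons overlap those of Kcnq1ot1 on the opposite strand, and reads from the 2 cannot be told apart without strand. Kcnq1ot1 itself averaged 1.32, 1.28 and 1.34 FPKM in day 120 grafts, day 60 grafts and isolated islets, and its values were looked at for this overlap.

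Calcium-activated channels link calcium entry to repolarization. Kcnma1, the pore of the BK channel, was at 10.7, 10.8, 8.02 and 7.78 FPKM in day 120 grafts, 2.43, 6.51, 7.72 and 6.67 FPKM in day 60 grafts and 8.24, 8.38, 15.0 and 9.42 FPKM in isolated islets. It was called lower at day 60 (log2 change -0.77, SE 0.28, adjusted p = 0.0439), and 8 of the 12 fits with 1 library left out lost the call, all but those without day 60 replicate 2, 3 or 4 or isolated islet replicate 1 (adjusted p of up to 0.14). At day 120 the change was -0.10 (adjusted p = 0.806). Kcnmb2, its inactivating beta subunit, was at 17.1 to 26.1 FPKM in day 120 grafts, 8.396 to 18.5 in day 60 grafts and 9.30 to 10.6 in isolated islet replicates 2 to 4, with 24.4 FPKM in replicate 1. It did not pass with all libraries (0.74, adjusted p = 0.0846, and 0.24, adjusted p = 0.546), and without both libraries that stood apart, which for this gene are the lowest graft and the highest islet library, its changes were 1.04 and 0.80. Kcnn4, an intermediate-conductance channel known from immune and epithelial cells, was at 2.02, 2.37, 3.17 and 4.25 FPKM in day 120 grafts, 6.28, 5.19, 1.94 and 2.30 FPKM in day 60 grafts and 4.29, 0.698, 0.658 and 0.417 FPKM in isolated islets. Kcnn4 rose at day 60 (1.09, SE 0.41, adjusted p = 0.0476) and did not pass at day 120 (0.85, adjusted p = 0.129). It was lost in 9 of the 12 fits with 1 library left out, all but those without day 60 replicate 3 or 4 or isolated islet replicate 1 (adjusted p of up to 0.137), and without isolated islet replicate 1 the changes were 1.28 at day 120 and 1.53 at day 60. Within day 60 grafts, Kcnn4 was highest in replicates 1 and 2. The 7 T and B cell markers were also highest there, with sums of 24.4 and 124 FPKM in these replicates and 5.38 and 8.16 in replicates 3 and 4. Over the other groups they summed to 5.36 to 16.9 FPKM in day 120 grafts and 4.36 to 5.54 in isolated islets. The 8 macrophage markers summed to 4021, 421, 1044 and 510 FPKM in day 60 replicates 1 to 4, so replicate 2 was the lowest, beside 292 to 493 in day 120 grafts and 50.3 to 94.3 in isolated islets. The part of these cells was not tested.

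Of the 9 tested accessory subunits of potassium channels, 1 rose in each comparison with isolated islets, where 24.3% of all genes rose at day 120 and 31.3% at day 60. Kcnip1 encodes KChIP1, a calcium-binding partner of Kv4 pores, and was at 36.1, 35.2, 36.8 and 37.9 FPKM in day 120 grafts, 14.5, 25.5, 29.3 and 34.1 FPKM in day 60 grafts and 26.7, 22.2, 21.7 and 18.1 FPKM in isolated islets. Day 120 grafts lay above every other library. Kcnip1 rose at day 120 (log2 change 0.71, SE 0.22, adjusted p = 0.0325), was 0.16 at day 60 (adjusted p = 0.582), and lost the day 120 call without any 1 day 120 library or isolated islet replicate 2, 3 or 4 (adjusted p of up to 0.1). Kcnab2, a cytoplasmic beta subunit of Kv1 channels, was at 1.22, 1.32, 1.59 and 2.16 FPKM in day 120 grafts, 5.06, 2.82, 2.03 and 2.06 FPKM in day 60 grafts and 1.02, 0.673, 0.713 and 0.565 FPKM in isolated islets. All grafts were above all isolated islets. Kcnab2 rose at day 60 (1.14, SE 0.23, adjusted p = 0.00262), a call that held when any 1 library was left out, and did not pass at day 120 (0.55, adjusted p = 0.0789).

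**Figure D4:**
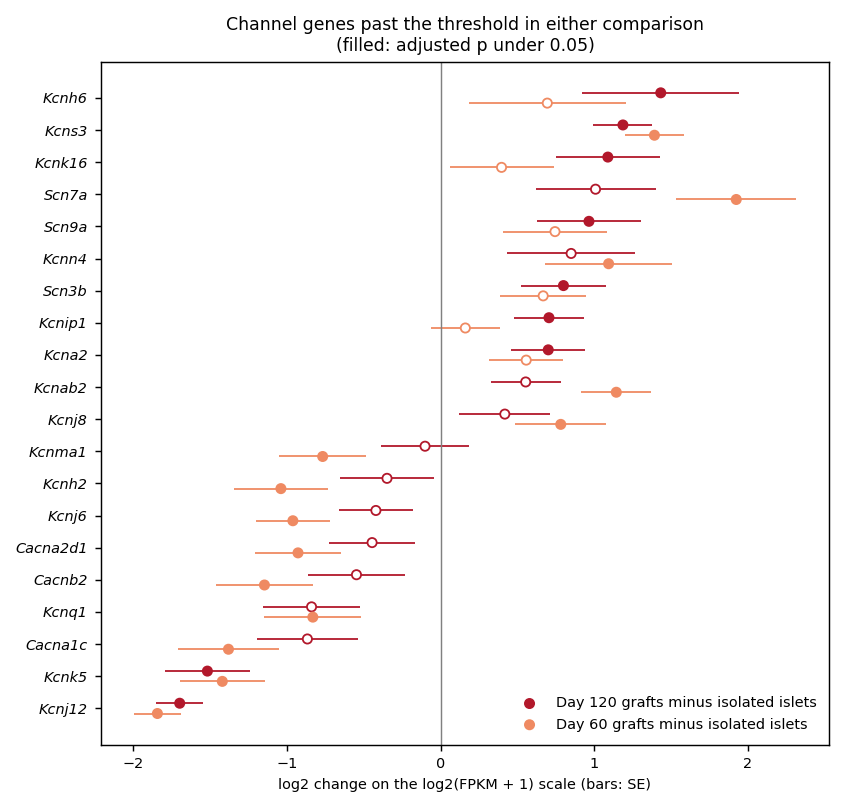
Log2 change of 20 of the 21 channel genes past the threshold in either comparison, for day 120 grafts minus isolated islets (dark red) and day 60 grafts minus isolated islets (light red), with bars of 1 SE and filled points for an adjusted p under 0.05. Kcnj12 has the lowest value at both times, -1.70 and -1.84, and the highest is Kcnh6 at day 120, 1.43, and Scn7a at day 60, 1.92.

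Day 120 grafts were also compared with day 60 grafts directly, which tests whether the change from isolated islets differs between the 2 times. By limma 0 channel genes passed, where 2 of all 13433 genes did (0.0149%), 1 higher and 1 lower (0.00744% each). Libraries were not paired by number in this fit. A fit of these 2 groups alone that paired them also gave 0 channel genes. It gave 12 at an unadjusted p under 0.05, where 1821 of all 13433 genes were. Without pairing there were 10 channel genes at that mark, or 18.9%, where 10.1% of all genes were. That count moved with the libraries kept: it was 1 without day 60 replicate 1 (4.59% of all genes) and 3 without day 120 replicate 1 or 2 (7.59% and 5.59% of all genes). It was 14 without day 60 replicate 2 or 4 (1648 and 2758 of all genes). Leaving out any other library gave 5 to 10 (907 to 1535 of all genes). With each library weighted by its quality, 7 channel genes passed, or 13.2%, below the 21.4% of all genes. The largest unadjusted difference by p was that of Kcnk12, a tandem-pore gene chosen after its values were seen, with a log2 change of 0.86 (adjusted p = 0.49). A set of 5 channel genes, among them Kcnip1, Kcnip4, Kcnj6 and Kcnma1, was higher in every day 120 graft than in every day 60 graft, 9.43% of the tested channel genes, where 2.91% of all genes were; 0 were lower without overlap, where 1.38% of all genes were. Kcnip4, a KChIP subunit, is named after its values were seen. Of these, Kcnip1 differed by 0.54, Kcnj6 by 0.54 and Kcnma1 by 0.67 on the log2 scale (adjusted p = 0.49 for each). The median log2 difference was 0.30 over the channel genes and 0.03 over all genes. Without day 60 replicate 1, the library with the lowest endocrine sum, it was 0.05 over the channel genes. With endocrine scaling the direction turned, to -0.13 over the channel genes and -0.54 over all genes, and 17 of the 53 channel genes lay above 0, against 36 as deposited.

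**Figure D5:**
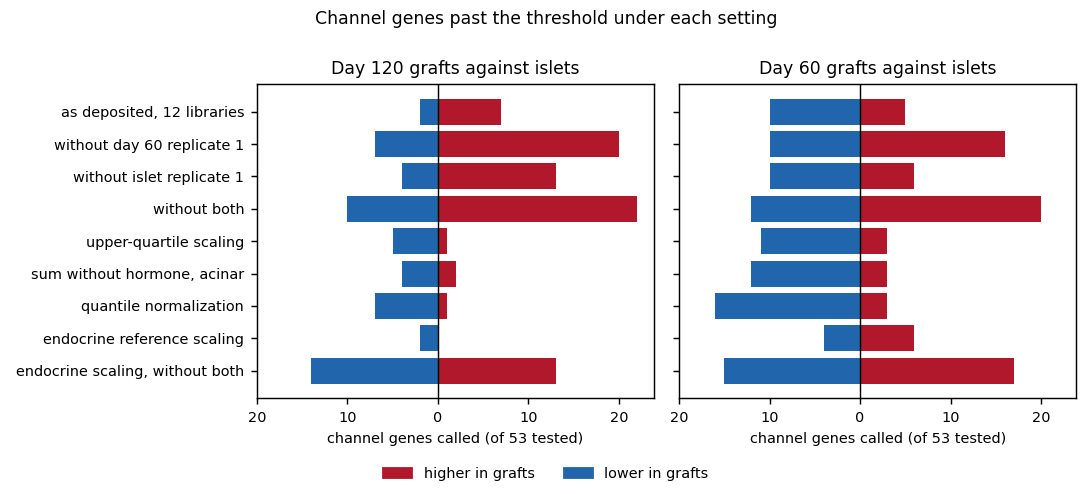
Number of channel genes past the threshold, higher (red, to the right) and lower (blue, to the left), in day 120 grafts and in day 60 grafts against isolated islets, with all 12 libraries as deposited, without 1 or both of the libraries that stood apart, and under other scalings. The counts run from 9 to 32 at day 120 and from 15 to 32 at day 60 between all libraries and the fit without both, and endocrine scaling leaves 0 higher and 2 lower at day 120, while the share of all genes called moved as well.

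Proteins that act on these channels, and some linked to them more loosely, were taken from short lists. Their counts are set against 31.4% of all genes called at day 120 and 43.7% at day 60. Of the small GTPases and related proteins that inhibit calcium channels, 3 of 7 were tested, and 2 fell in both comparisons. Rem2 averaged 1.93 ± 0.554 FPKM in day 120 grafts, 1.33 ± 0.684 in day 60 grafts and 6.87 ± 1.60 in isolated islets (SD, n = 4 each), with log2 changes of -1.42 (adjusted p = 0.00299) and -1.78 (adjusted p = 0.000417). Gem was at 1.96, 2.89, 3.37 and 4.93 FPKM in day 120 grafts, 12.2, 4.65, 3.18 and 3.26 FPKM in day 60 grafts and 37.6, 13.45, 9.66 and 7.75 FPKM in isolated islets. Isolated islet replicate 1 was far above the rest, and the isolated islet mean was 17.1 FPKM with it and 10.3 without it, while day 60 replicate 1 lay among the isolated islets. The log2 change of Gem was -1.86 at day 120 (adjusted p = 0.0127) and -1.32 at day 60 (adjusted p = 0.035). The day 60 call was lost without day 60 replicate 2, 3 or 4 or isolated islet replicate 1 or 2 (adjusted p of up to 0.0925), and both calls were lost with endocrine scaling (adjusted p = 0.0904 and 0.247). Of 10 partners of the ATP-sensitive channel and glucose sensing genes, all tested, 3 rose and 1 fell at day 120, and 1 rose and 1 fell at day 60. The lipid receptor gene Gpr119 rose in both (1.66, adjusted p = 0.00797, and 1.42, adjusted p = 0.0088), and the glucose transporter gene Slc2a1 fell in both (-1.46, adjusted p = 0.00335, and -1.40, adjusted p = 0.00188), although its day 60 call was lost with endocrine scaling (adjusted p = 0.0669). The median log2 change of this list was 0.89 at day 120 and 0.08 at day 60, beside 0.30 and 0.27 over all genes. A further list was drawn up for accessory proteins of potassium channels but is not limited to them. Of its 7 tested genes, 1 fell at day 120 and 2 fell at day 60. Among them, Cnih2, which escorts membrane receptors, fell at day 60 (-1.31, adjusted p = 0.0106) and did not pass at day 120 (-0.92, adjusted p = 0.062).

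The 77 channel genes below the filter were mostly near 0. The largest was Kcnj14, an inward rectifier gene chosen after its values were seen, at 0.346, 0.1, 1.18 and 0.187 FPKM in day 120 grafts, 6.94, 0.370, 2.04 and 0.302 FPKM in day 60 grafts and 0, 0.157, 0.039 and 0.060 FPKM in isolated islets. Day 60 replicate 1 held the highest of these values. Cacng4, a gamma subunit known from islets, was at 0.240 to 0.935 FPKM in day 120 grafts, 0 to 1.11 in day 60 grafts and 0.246 to 1.57 in isolated islets. Summed over all 135 genes, channel RNA came to 600 ± 62.2 FPKM in day 120 grafts, 460 ± 138 in day 60 grafts and 445 ± 51.9 in isolated islets (SD, n = 4 each). The potassium channel genes made up 416 to 530 FPKM of this in day 120 grafts, 193 to 489 in day 60 grafts and 263 to 384 in isolated islets. Kcnk16 alone averaged 201.5 FPKM in day 120 grafts, 136.7 in day 60 grafts and 98.31 in isolated islets, so these sums lean on a single gene. Its day 120 call depended on single libraries and on scaling. The calcium channel genes made up 78.8 to 101 FPKM in day 120 grafts, 26.3 to 91.9 in day 60 grafts and 82.8 to 120 in isolated islets.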

How the data were processed

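Total RNA of 12 libraries, 4 in each of 3 groups, was sequenced after cDNA amplification from a low input, per the labels' protocols. The authors deposited 1 table of FPKM values for 23234 genes, made with TopHat2, Cufflinks 2.1.1 and mm9, per the submitters' processing notes. The annotation, options and use of strand are not given in the sources used here. No counts were used, so no counting interval is given, and every column matched a sample. Genes with at least 1 FPKM in at least 4 libraries (13433) were tested as log2(FPKM + 1) with limma 3.58.1 in R 4.3.3 (all libraries, group as the only term, trended and robust variances). P-values were Benjamini-Hochberg adjusted over these genes, with a threshold of 0.05. The code was tested on simulated data. Channel genes and lists were chosen with earlier results of these data known, and so were the 2 libraries left out together. Genes named are a fixed set of islet channel genes, those with the largest called changes in each comparison and the 12 highest by mean, and others are said to be chosen after their values were seen. The results of 3 tested channel genes are not reported here, though counts and sums include them. Day 120 and day 60 libraries of the same number deviated together (correlation 0.18 to 0.442, 4 of 4 highest with their own number), so these numbers were taken to pair them. A fit with the replicate block also gave 0 channel genes between the 2 times. Alternatives changed the pseudocount, filter, scaling, variance model, block and libraries kept. Promoters came from RefSeq (GRCm38.p6), where 99 of the 135 genes matched by symbol.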

Additional observations from a re-analysis of the deposited data

Results flagged for a closer look

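In each group, the named channel genes were searched for a single library far from the other 3, and 9 of 87 gene and group pairs had one. Chance alone gives such a library in about 1 in 20 groups. In day 60 replicate 1, Cacnb2 was at 1.562 FPKM against 6.278 to 7.079 in the other day 60 grafts. Kcnmb2 was at 8.396 FPKM in the same library, against 17.526 to 18.536. Scn7a ran the other way in this library, with 17.151 FPKM against 2.719 to 4.503. Isolated islet replicate 1 had 24.355 FPKM of Kcnmb2 against 9.298 to 10.595 in the other isolated islets. It had 4.294 FPKM of Kcnn4 against 0.417 to 0.698, and 5.628 FPKM of Kcnq1 against 0.916 to 1.705. Its Scn9a level was 4.410 FPKM against 1.292 to 1.394, and its Scn7a level was 0.938 FPKM against 0.672 to 0.716. In day 120 grafts, Kcns3 was at 1.861 FPKM in replicate 2 against 1.268 to 1.368.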

How the results depend on the processing

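Counts of called channel genes depended on the libraries kept and on scaling, and apart from the shared spread named below the cause was not tested. With all libraries 9 were called at day 120 and 15 at day 60 against isolated islets, and 0 between the 2 times. Without isolated islet replicate 1 and day 60 replicate 1 the counts were 32 and 32 (60.4% each, beside 56.4% and 58.1% of all genes). With library quality weights they were 35 and 40 (66.0% and 75.5%, beside 66.6% and 77.1% of all genes), with 7 between the 2 times (13.2%, beside 21.4%). Endocrine scaling gave 2 at day 120, and the same scaling without both libraries, chosen after seeing the data, gave 27 and 32 (50.9% and 60.4%, beside 48.1% and 53% of all genes). Leaving out 1 library gave 3 to 27 at day 120 and 10 to 26 at day 60, both highest without day 60 replicate 1, while the share of all genes called ran from 14.8% to 44.9% and from 30.9% to 51.7%. Day 60 libraries enter the day 120 calls only through the spread that the 3 groups share. Without day 60 replicate 1 the median day 120 change stayed at 0.21 over channel genes and 0.30 over all genes (log2). At day 120 the count was 3 without isolated islet replicate 2 or 4 or day 120 replicate 2, 3 or 4, 4 without isolated islet replicate 3, 5 without day 60 replicate 3 and 17 without isolated islet replicate 1. At day 60 it was 10 without isolated islet replicate 2 or 3. Day 120 and isolated islets alone gave 27, and 20 with the replicate block, while day 60 and isolated islets alone gave 11, and 12 with the replicate block. Replicate numbers did not deviate together between grafts and isolated islets (correlations of -0.0784 to 0.0154 at day 120 and -0.0699 to 0.0199 at day 60), so they share only a number there. With 0.1 FPKM as the mark for detection, 97, 101 and 98 channel genes were detected in day 120 grafts, day 60 grafts and isolated islets, and with 5 FPKM 23, 18 and 18. At 0.1 FPKM these were 71.9%, 74.8% and 72.6%, beside 70.3%, 71.6% and 68.6% of all genes. At 5 FPKM they were 17%, 13.3% and 13.3%, beside 36.9%, 38.1% and 32.5% of all genes. Across scalings the median of all genes lay between 0.01 and 0.30 at day 120 and between -0.04 and 0.54 at day 60 (log2). The log2 change of Kcnj11 at day 120 was -0.52 with endocrine scaling and both libraries left out, against 0.01 with all libraries as deposited. The first of these is given as a size alone. Of the other values for single genes under an alternative, 2088 kept their direction and side of the threshold, 90 changed sign without passing in either fit, 157 newly passed and 145 no longer passed. Depth is unknown, which limits low genes most.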

Other observations

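Other carriers of ions were looked at in lists, set against 31.4% of all genes called at day 120 and 43.7% at day 60. Of 20 tested cation channel genes outside the families above, 7 rose and 2 fell at day 120, and 7 rose and 3 fell at day 60. The ATP-gated channel gene P2rx4 averaged 26.9 ± 5.58 FPKM in day 120 grafts, 31.7 ± 9.44 in day 60 grafts and 9.86 ± 3.07 in isolated islets (SD, n = 4 each), and it rose at both times by limma (log2 change 1.38, adjusted p = 0.00312, and 1.59, adjusted p = 0.000691). The lysosomal channel gene Tpcn2 rose too (0.66, adjusted p = 0.0327, at day 120 and 1.45, adjusted p = 0.000572, at day 60), its day 120 call being lost without day 120 or isolated islet replicate 2, 3 or 4 (adjusted p of up to 0.105). The cation channel gene Trpc1 fell (-1.25, adjusted p = 0.00966, and -1.65, adjusted p = 0.00141). Macrophage markers, from cells known to use P2rx4, summed to 292 to 493 FPKM in day 120 grafts, 421 to 4021 in day 60 grafts and 50.3 to 94.3 in isolated islets, and their part was not tested. With endocrine scaling the day 120 calls of P2rx4 and Tpcn2 were lost (adjusted p = 0.223 and 0.572).

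Among 11 tested chloride channel genes, 2 rose and 2 fell at day 120, and 1 rose and 5 fell at day 60. Lrrc8b, a subunit of the volume-regulated anion channel, averaged 0.889 FPKM in day 120 grafts, 1.11 in day 60 grafts and 4.43 in isolated islets, and fell at both times by limma (-1.47, adjusted p = 0.0044, and -1.30, adjusted p = 0.00375). Of 15 tested pump and exchanger genes, 3 rose and 1 fell at day 120, and 2 rose and 4 fell at day 60. Atp2a2, the calcium pump of the endoplasmic reticulum, averaged 160 ± 17.5 FPKM in day 120 grafts, 97.9 ± 33.5 in day 60 grafts and 247 ± 33.7 in isolated islets (SD, n = 4 each), and fell at day 60 (-1.39, adjusted p = 0.00157) without passing at day 120 (-0.62, adjusted p = 0.0751). Of 12 tested genes of store calcium release and entry, 3 rose at day 120 and 5 rose at day 60, and 0 fell at either; Calm3, a calmodulin gene, changed by 1.04 at day 120 (adjusted p = 0.0087) and 0.91 at day 60 (adjusted p = 0.00878). Of 15 tested genes of exocytosis coupled to calcium entry, 1 rose and 1 fell at day 120, and 0 rose and 2 fell at day 60. With endocrine scaling, added after seeing the data, the calls of Lrrc8b (adjusted p = 0.0579 and 0.0815) and Calm3 (0.391 and 0.0532) were lost at both times. Between day 120 and day 60 grafts, 0 genes of these lists passed by limma.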
